A study of Mus musculus with 8 samples.

Results

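The genes described are 41 genes of fatty acid oxidation and ketogenesis, chosen by symbol and split by the main site of their products into 20 mitochondrial genes, 11 peroxisomal genes and 10 genes of the cytosol, endoplasmic reticulum, membranes, nucleus or secreted fraction. All 41 had at least 1 probe on the array that passed the filter on dim probes, among 13906 genes tested. RNA came from livers of male mice on Agilent one-colour (Cy3) arrays. The 4 mice labelled oxaliplatin received the platinum drug into the peritoneum 1 time a week over 6 weeks, which the labels describe as inducing hepatic sinusoidal obstruction syndrome (HSOS), in which sinusoids are damaged and blocked. The other 4 mice were labelled control or normal. The labels call the animals of each group biological replicates, and give no strain, age, dose or time from the last injection, nor what the controls were injected with.

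In the liver, fatty acids enter the hepatocyte through carriers such as Cd36, are held in the cytosol by Fabp1, and are activated to acyl-CoA by acyl-CoA synthetases such as Acsl1. Mitochondria import them as carnitine esters and shorten them in repeated rounds of dehydrogenation, hydration, oxidation and thiolysis. In fasting much of the acetyl-CoA becomes ketone bodies. Peroxisomes shorten very long and branched chains first, and many genes of both routes are targets of the nuclear receptor PPAR alpha, which fasting activates.

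Values are log2 signals relative to each array's 75th percentile, and a difference is the mean of the oxaliplatin arrays minus the mean of the control arrays, with its standard error (SE). A difference passed the test when the Benjamini-Hochberg adjusted p of limma's moderated test, over all 13906 genes, was under 0.05. Across all genes 972 were higher and 1614 lower, and the median difference was -0.09. Between 27.2% and 40.9% of probes were well above background on each array, and no spot was saturated. The 27.2% was that of oxaliplatin replicate 2, and the next lowest was oxaliplatin replicate 1 with 34.3%. The 4 oxaliplatin arrays lay on one slide and the 4 control arrays on the other, so group, slide and scan cannot be told apart. Oxaliplatin replicates 1 and 2 also carry a run name that differs from that of the other 6 arrays.

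The labels were set against Cdkn1a and Phlda3, targets of p53 that platinum drugs are known to raise. Cdkn1a was at 3.65, 1.43, 1.08 and 0.54 on the oxaliplatin arrays and at 4.66, 5.10, 5.04 and 6.33 on the control arrays. Its difference was -3.61 ± 0.66 (SE, limma adjusted p = 0.0117), and that of Phlda3 was -3.57 ± 0.17 (limma adjusted p = 0.000214). Both were thus lower on the arrays labelled oxaliplatin, the direction opposite to the known response. Whether the labels of the groups were exchanged was not tested, and every direction below is that of the arrays as labelled.

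Nudt7, Fabp1, Acsl1 and Cd36 carry the calls, so the first 30 bases of each 60-base probe, as deposited, are given 5′ to 3′. On build mm9, per the deposited files, the Nudt7 probe lies at chr8:116676034-116676093, the Fabp1 probe at chr6:71154906-71154965 and the Cd36 probe at chr5:17288600-17288659 on the minus strand. The files place the Acsl1 probe by accession only, and whether the probes lie in coding or untranslated sequence is not annotated here.
Nudt7: agatccttgcctgacttcctgttgctgctt
Fabp1: attgggcgacattgtctacaagagagtcag
Acsl1: tcatactcgtattcttaattgcacaggaag
Cd36: aagaatgaaaaatgaacaattcacatgtga

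Of the 41 genes, 3 rose (Nudt7, Fabp1 and Acsl1) and 1 fell (Cd36), and 37 did not pass the test. Among all genes 18.6% passed in either direction, 6.99% as higher and 11.6% as lower, against 9.76% of the 41, so the pathway had no larger share of calls than the array as a whole. The median difference of the 41 was 0.30, and 31 of them (75.6%) had a positive difference, against 40.6% of all genes. At an unadjusted p under 0.05 stood 16 of the 41, against 5009 of all 13906 genes. Centring each array on the median of all its probes shifted the all-gene median by -0.63 and turned the median of the 41 to -0.33, so that 12 of the 41 kept a positive difference and 19 turned negative, and with this centring 1 of the 41 was called higher and 10 lower, against 1.65% and 69.6% of all genes. Relative to the median of all genes, the median of the 41 lay 0.39 higher. This value is the same under both scalings by construction, since the change of scaling shifts every gene alike. In bulk liver RNA, fewer cells of a type and less RNA per cell cannot be told apart.

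**Figure D1:**
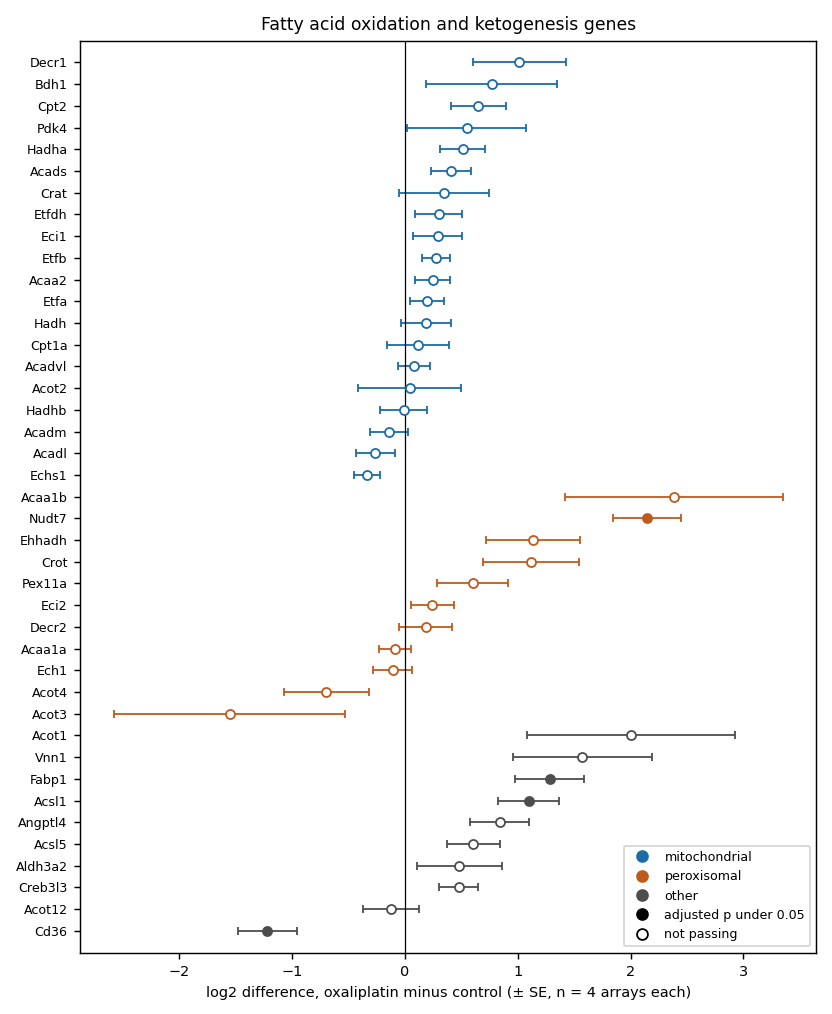
Log2 difference, oxaliplatin minus control, of each of the 41 genes with its standard error (n = 4 arrays each), grouped into mitochondrial (blue), peroxisomal (orange) and other genes (grey). Filled points passed the test: Nudt7, Fabp1 and Acsl1 lie to the right of 0 and Cd36 to the left, while no mitochondrial point is filled.

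Nudt7, a peroxisomal diphosphatase that breaks down coenzyme A and its esters, had the strongest call. It was at 8.43, 8.62, 8.94 and 9.66 on the oxaliplatin arrays, against 6.72, 6.96, 7.19 and 6.18 on the control arrays. The lowest oxaliplatin array stood above the highest control array. The means were 8.91 ± 0.54 and 6.76 ± 0.43 (SD, n = 4 each), a difference of 2.15 ± 0.30, or 4.43-fold (limma adjusted p = 0.00533). All 3 Nudt7 probes gave differences between 2.13 and 2.27, and the call held under each of the 22 alternative settings tried.

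Fabp1, the liver fatty acid binding protein that carries fatty acids through the cytosol, was at 10.44, 10.27, 10.27 and 10.31 on the oxaliplatin arrays. On the control arrays it was at 9.37, 9.61, 9.15 and 8.04, and control replicate 4 was the lowest by more than 1 log2 unit. The groups did not overlap. The difference was 1.28 ± 0.31, or 2.43-fold (limma adjusted p = 0.0262), and the second Fabp1 probe gave 1.47. Acsl1, the long-chain acyl-CoA synthetase that activates fatty acids, was at 10.12, 10.19, 10.38 and 10.05 on the oxaliplatin arrays, against 9.11, 9.83, 9.07 and 8.35 on the control arrays. Here too the groups did not overlap, with control replicate 2 nearest to the oxaliplatin arrays and control replicate 4 farthest. Its difference was 1.10 ± 0.27, or 2.14-fold (limma adjusted p = 0.0298), and its other 3 probes gave 1.14 to 1.76. Leaving out any of the 4 oxaliplatin arrays or control replicate 3 ended both calls, and leaving out control replicate 1 also ended that of Acsl1. Centring on the median of all probes took Fabp1 to 0.66 and Acsl1 to 0.47 and ended both calls. With the run name as a covariate both were lost as well, and the 2 calls that remained among the 41 were Nudt7 and Cd36, against 6.61% of all genes. With oxaliplatin replicates 3 and 4 alone against the 4 controls, all of one run name, Nudt7 was the only call, against 3.7% of all genes.

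Cd36, a fatty acid translocase of the plasma membrane, was at 3.43, 3.74, 2.63 and 3.71 on the oxaliplatin arrays, against 4.38, 4.82, 4.32 and 4.85 on the control arrays. Every oxaliplatin array stood below every control array. The difference was -1.22 ± 0.26, or 2.33-fold lower (limma adjusted p = 0.0186). The second Cd36 probe gave -0.99 and did not pass (limma adjusted p = 0.0681, over all probes). With oxaliplatin replicates 3 and 4 alone against the controls the call was lost. Cd36 is also made by endothelial cells, macrophages and adipocytes. Of 10 sinusoidal endothelial markers 1 passed the test, Lyve1, a hyaluronan receptor of sinusoidal endothelium, with -1.49 ± 0.26 (limma adjusted p = 0.00993). The median difference of the 10 was -0.007, and 4 of them had a positive difference (40%, against 40.6% of all genes). The mean log2 level of that list was between 4.92 and 5.32 on oxaliplatin arrays and between 5.12 and 5.38 on control arrays. Of 10 macrophage markers 9 had a positive difference (90%, against 40.6% of all genes), with a median of 0.38. Csf1r rose by 1.47 and Marco fell by 2.26, and the other 8 did not pass. Their mean level over all 10 was between 5.33 and 6.48 on oxaliplatin arrays and between 5.17 and 5.95 on control arrays. The adipocyte markers Adipoq, Lep, Retn, Cfd, Cidea and Ucp1 did not pass the filter on dim probes, and of the other 4 Fabp4 fell by 1.24, while the mean of the 4 was 1.89 to 2.49 on oxaliplatin arrays and 2.10 to 2.83 on control arrays. The part of these cells in the Cd36 result was not tested.

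**Figure D2:**
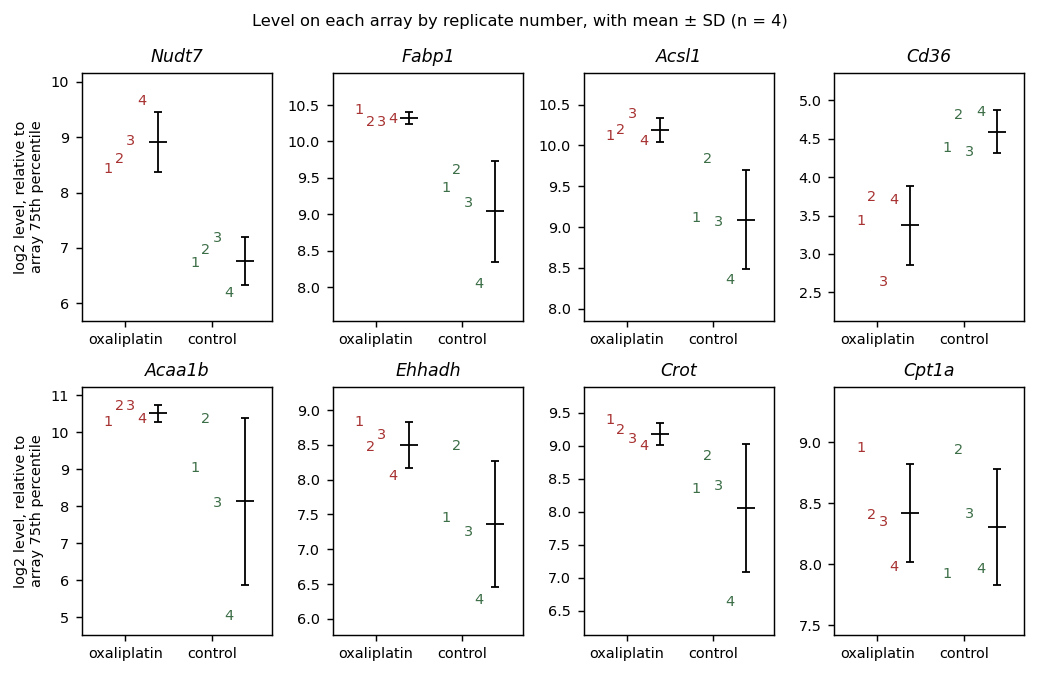
Log2 level on each array for 8 genes, plotted as the replicate number, with the mean and SD of 4 arrays beside each group (oxaliplatin left, control right). Nudt7, Fabp1, Acsl1, Cd36 and Crot show no overlap between the groups, while control replicate 2 reaches into or near the oxaliplatin range for Acaa1b, Ehhadh and Cpt1a, and control replicate 4 lies far below the rest for Acaa1b and Crot.

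None of the 20 mitochondrial genes passed the test in either direction, against 18.6% of all genes, and 5 of them (25%) had an unadjusted p under 0.05 by limma, against 5009 of all 13906 genes. Their median difference was 0.26, with a range from -0.34 to 1.01. Under the other 22 settings between 0 and 3 were called higher and between 0 and 5 lower. The 3 came without control replicate 2, where 6.98% of all genes were called higher, and the 5 with arrays centred on the median of all probes, where 69.6% of all genes were called lower.

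Cpt1a loads long-chain fatty acids onto carnitine and controls the rate of their entry into mitochondria. It was at 8.95, 8.41, 8.35 and 7.98 on the oxaliplatin arrays, against 7.92, 8.94, 8.41 and 7.96 on the control arrays, ranges that nearly coincide. The difference was 0.11, with a 95% interval from -0.51 to 0.74 (limma adjusted p = 0.796). The other 2 Cpt1a probes gave 0.38 ± 0.23 and 0.46 ± 0.17, and neither passed (limma adjusted p = 0.261 and 0.0900, over all probes). Cpt2, which returns the imported chains to coenzyme A, had 0.65 ± 0.24 (limma adjusted p = 0.0895), and Crat, the carnitine acetyltransferase, had 0.34 ± 0.40.

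The acyl-CoA dehydrogenases, which begin each round and differ in the chain length they accept, did not pass the test. Acadvl (very long chains) had a difference of 0.08, Acadl (long) -0.26, Acadm (medium) -0.14 and Acads (short) 0.41, with 0.56 on the second Acads probe. When arrays were centred on the median of all probes, which shifts every gene alike, they stood at -0.55, -0.89, -0.77 and -0.22, the first 3 of them called lower. With this centring 69.6% of all genes were called lower. The trifunctional protein, which carries out the remaining steps on long chains, has an alpha subunit, Hadha, at 0.51 ± 0.20 (limma adjusted p = 0.102) and a beta subunit, Hadhb, at -0.01 ± 0.21. Of the enzymes for shorter chains, the dehydrogenase Hadh had 0.19, the thiolase Acaa2 0.25 and the hydratase Echs1 -0.34 ± 0.12 (limma adjusted p = 0.0733). Acaa2 was the only mitochondrial gene with a probe that passed, its second, with 0.48 (limma adjusted p = 0.02, over all probes). Eci1 and Decr1 prepare unsaturated chains for oxidation, and had 0.29 and 1.01 ± 0.41 (limma adjusted p = 0.116 for Decr1). Electrons leave the dehydrogenases through the flavoprotein subunits Etfa (0.20) and Etfb (0.27) and reach ubiquinone through Etfdh (0.30).

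Bdh1, which interconverts acetoacetate and 3-hydroxybutyrate in the last step of ketogenesis, was at 8.04, 8.16, 8.15 and 7.96 on the oxaliplatin arrays, against 7.61, 8.57, 7.67 and 5.39 on the control arrays. The oxaliplatin arrays lay within 0.20 of each other, inside a control range of 3.18. The difference of 0.77 ± 0.58 did not pass (limma adjusted p = 0.37), and its 95% interval was -0.56 to 2.09. The other 2 Bdh1 probes gave larger differences, 1.97 ± 1.08 and 1.86 ± 0.88, and did not pass either. Pdk4, a kinase that spares glucose by blocking pyruvate dehydrogenase, had 0.55 ± 0.53, and the mitochondrial thioesterase Acot2 had 0.04 ± 0.46.

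Among the 11 peroxisomal genes Nudt7 was the only call (9.09%, against 18.6% of all genes), and the median difference was 0.24. Acaa1b, a peroxisomal thiolase, had the largest difference of the 41 and did not pass. It was at 10.27, 10.71, 10.71 and 10.36 on the oxaliplatin arrays, against 9.04, 10.35, 8.09 and 5.03 on the control arrays. Control replicate 2 stood level with the oxaliplatin arrays and control replicate 4 far below all others, which gave a difference of 2.38 ± 0.97 (limma adjusted p = 0.115). Ehhadh, the peroxisomal bifunctional enzyme, was at 8.83, 8.46, 8.65 and 8.05 on the oxaliplatin arrays, against 7.45, 8.48, 7.25 and 6.27 on the control arrays. The overlap again came from control replicate 2, and the difference was 1.14 ± 0.42 (limma adjusted p = 0.0886). Crot, which makes octanoyl-carnitine for export from the peroxisome, was at 9.39, 9.24, 9.10 and 8.99 on the oxaliplatin arrays, against 8.35, 8.85, 8.39 and 6.64 on the control arrays. Its groups did not overlap, and yet its difference of 1.12 ± 0.42 did not pass (limma adjusted p = 0.0972). In all, 5 of the 41 genes had groups that did not overlap, against 27.7% of all genes.

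Pex11a, which acts in peroxisome division, had 0.60, and the isomerase Eci2 and the reductase Decr2, both needed for unsaturated chains, had 0.24 and 0.18. The dienoyl-CoA isomerase Ech1 had -0.11. The thioesterases Acot3 and Acot4 had -1.55 ± 1.03 and -0.70 ± 0.38, and neither passed. Acot3 ranged over 4.69 log2 units among the oxaliplatin arrays, with 5.12, 2.93, 4.26 and 0.43, and was at 4.78, 6.07, 5.13 and 2.99 on the control arrays.

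Acaa1a, the second peroxisomal thiolase, had a difference of -0.09 on its brightest probe, far from that of its paralog Acaa1b. The first 30 bases of the 2 probes are shown because the paralogs differ in value.
Acaa1a: ggttgcaaagccatttgtacctttgaggga
Acaa1b: ttctctcggtcgaaccaaagacagtgcatg

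Over their full 60 bases, at the best alignment without gaps, these 2 probes matched at 21 positions. The longest run shared at any alignment without gaps was 5 bases. Over all 8 pairs of an Acaa1a with an Acaa1b probe the matches were 17 to 21, and over the 23 pairs between Acot1, Acot2, Acot3 and Acot4 probes they were 18 to 26. Matches between probes of unrelated genes were not counted, so no background stands beside these numbers. The Acaa1a probes disagreed with each other: the other 3 gave -0.27, 0.27 and 1.24, and the last of these passed as higher (limma adjusted p = 0.0461, over all probes). The second Acaa1b probe gave 1.56 and passed (limma adjusted p = 0.047, over all probes). Whether a probe also binds the transcript of the other paralog was not tested. Among the 38 genes with more than 1 probe passing the filter, all probes had the same sign in 35 and lay within 0.5 of each other in 33.

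The 10 other genes had a median difference of 0.72, with 2 calls higher and 1 lower (30%). Among all genes 18.6% were called, 6.99% as higher and 11.6% as lower. Angptl4, a secreted inhibitor of lipoprotein lipase, was at 9.01, 8.40, 9.15 and 9.20 on the oxaliplatin arrays, against 7.52, 8.38, 7.99 and 8.52 on the control arrays. The groups overlapped because oxaliplatin replicate 2 lay below control replicate 4, the highest control, and the difference was 0.84 ± 0.26 (limma adjusted p = 0.0548). Its second probe gave 1.10 and passed (limma adjusted p = 0.0149, over all probes). Vnn1, a pantetheinase that takes part in the turnover of coenzyme A, was at 4.81, 3.92, 3.79 and 2.48 on the oxaliplatin arrays, against 1.84, 3.64, 2.17 and 1.05 on the control arrays, a difference of 1.57 ± 0.62 (limma adjusted p = 0.106). Acot1, a cytosolic thioesterase, was at 6.63, 6.97, 7.55 and 5.79 on the oxaliplatin arrays, against 5.26, 7.39, 3.17 and 3.09 on the control arrays. Control replicate 2 stood above 3 of the 4 oxaliplatin arrays, and the difference was 2.01 ± 0.92 (limma adjusted p = 0.156). Acsl5, a second acyl-CoA synthetase, had 0.61 ± 0.23. Creb3l3, a transcription factor held in the endoplasmic reticulum, had 0.48 ± 0.17 (limma adjusted p = 0.0892), the fatty aldehyde dehydrogenase Aldh3a2 had 0.48 ± 0.38, and the acetyl-CoA hydrolase Acot12 had -0.12 ± 0.25.

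The 41 genes moved together among the control arrays. Control replicate 2 was above the mean of the 4 controls for all 41 genes, by 0.71 on average, and was the highest control for 37 of them (90.2%, against 29.8% of all genes). Echs1, Nudt7, Cd36 and Angptl4 were the 4 exceptions. Control replicate 4 was below the mean of the controls for 39 genes, by 0.63 on average over the 41, and was the lowest control for 31 (75.6%, against 38.9% of all genes). For 30 genes (73.2%, against 19.5% of all genes) control replicate 2 was the highest and control replicate 4 the lowest. Genes outside the 41 showed this order too, 44.4% of the other mitochondrial, 44.4% of the other peroxisomal and 54.8% of the other PPAR alpha and fasting genes tested, and the difference between these shares was not tested. Markers of other cells also separated these arrays. The lowest control was replicate 2 for all 10 macrophage and 5 of 8 red blood cell markers, against 19.8% of all genes. The highest was control replicate 4 for 6 of those 8, against 29.97% of all genes. Among 10 hepatocyte markers control replicate 4 was the lowest control for 6 (60%, against 38.9% of all genes). For 2 of these 10 control replicate 2 was the highest (20%, against 29.8% of all genes). The part of macrophages, red blood cells and hepatocytes in the order of the control arrays was not tested. All 20 mitochondrial genes were above the control mean on control replicate 2 and below it on control replicate 4, and so were all 11 peroxisomal genes. The oxaliplatin arrays differed less: oxaliplatin replicate 4 was the lowest of its group for 27 genes (65.9%, against 16.4% of all genes), and its mean deviation from the group mean over the 41 was -0.28.

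**Figure D3:**
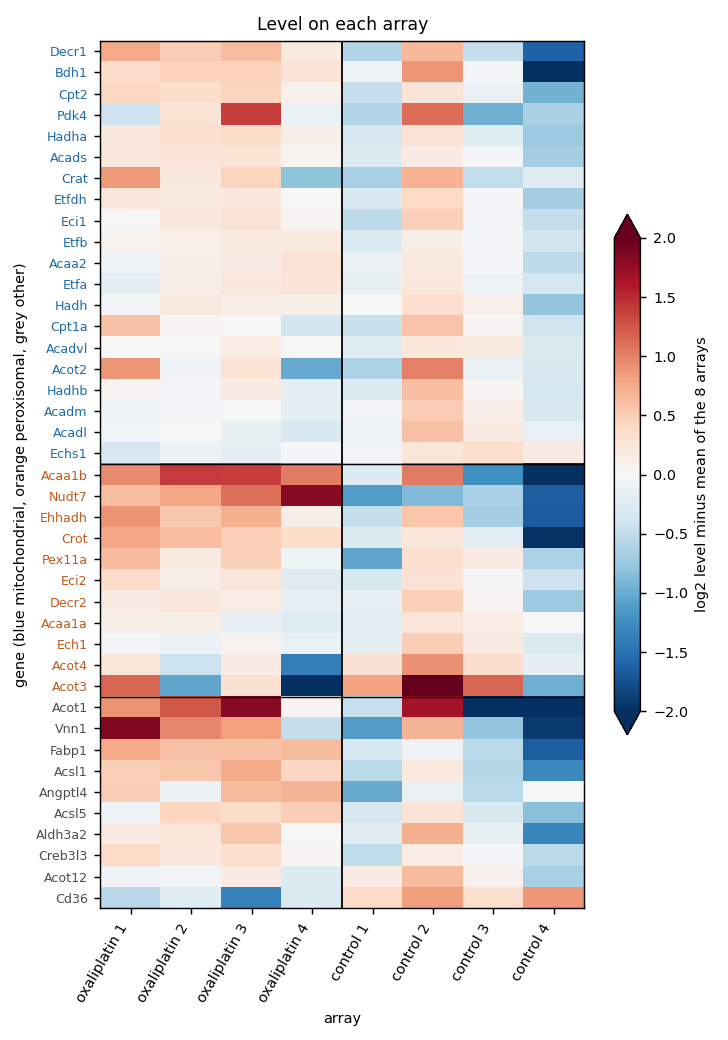
Log2 level of each of the 41 genes on each array, minus the gene's mean over the 8 arrays, with oxaliplatin arrays left and control arrays right and colours held at 2 log2 units. Control replicate 2 is red for most genes, like most of the oxaliplatin arrays, and control replicate 4 is blue for most, with Cd36 and Echs1 among the exceptions. Oxaliplatin replicate 4 is mixed in colour.

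The SD was larger among the control than among the oxaliplatin arrays for 35 of the 41 genes (85.4%, against 64.7% of all genes). The median SD was 0.18 on oxaliplatin arrays and 0.47 on control arrays, against 0.18 and 0.23 over all genes. The number of calls changed when these arrays were left out. Without control replicate 2, 12 of the 41 genes were called higher, against 6.98% of all genes: Nudt7, Fabp1 and Acsl1 again, and Cpt2, Hadha, Decr1, Ehhadh, Acaa1b, Acsl5, Acot1, Vnn1 and Creb3l3. Without control replicate 4, 5 were called higher, against 6.16% of all genes, with Crot and Angptl4 added. Angptl4 was also called without oxaliplatin replicate 2, and Echs1 was called lower without control replicate 1. Leaving out both control replicate 2 and control replicate 4, a choice made after the values were seen, gave 9 higher, against 4.13% of all genes, and ended the call of Cd36. The labels name no difference between the 4 control mice.

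**Figure D4:**
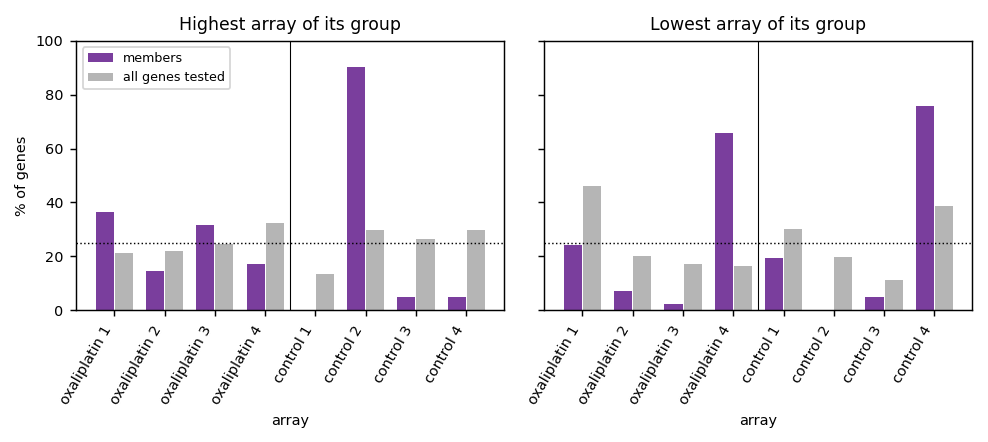
Share of genes for which each array was the highest (left) or the lowest (right) of its own group of 4, for the 41 genes (purple) and all genes tested (grey), with a dotted line at 25%, an equal share. Control replicate 2 was highest for 90.2% of the 41 genes and control replicate 4 lowest for 75.6%.

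The other genes of the pathway were read from 3 lists that hold none of the 41. Of 27 other mitochondrial genes tested, 4 rose and 3 fell (25.9%, against 18.6% of all genes, 6.99% as higher and 11.6% as lower), with a median difference of 0.13. Acss1, which activates acetate, rose by 1.04 ± 0.12 (limma adjusted p = 0.00318). Acacb, the acetyl-CoA carboxylase whose product inhibits Cpt1a, rose by 1.11 ± 0.16 (limma adjusted p = 0.00559). Slc25a20, the carrier that exchanges acyl-carnitine across the inner membrane, rose by 1.38 ± 0.34 (limma adjusted p = 0.0288), and Mlycd, which removes the product of Acacb, rose by 0.70 ± 0.18 (limma adjusted p = 0.0351). Cpt1c, a neuronal paralog of Cpt1a, had -1.70 ± 0.22 (limma adjusted p = 0.00414) and was well above background on 2 of the 4 oxaliplatin arrays and all 4 control arrays. The remaining 2 calls, named after their values were seen, were the acyl-CoA dehydrogenases Acad12 (-0.47) and Acad10 (-0.43).

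Of 27 other peroxisomal genes tested, 2 rose and 1 fell (11.1%, against 18.6% of all genes). Acox2, an acyl-CoA oxidase that acts on branched chains and bile acid precursors, fell by 0.67 (limma adjusted p = 0.0177). Acox3 had 0.44 (limma adjusted p = 0.0262) and Pex10, a ubiquitin ligase of peroxisome assembly, 0.52 (limma adjusted p = 0.0312), and both turned negative, to -0.19 and -0.11, when arrays were centred on the median of all probes.

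Of 31 other genes of PPAR alpha and the fasting response, 2 rose and 5 fell (22.6%, against 18.6% of all genes), with a median difference of -0.06. Ppara, the receptor itself, was at 7.23, 7.30, 7.45 and 7.29 on the oxaliplatin arrays, against 6.28, 7.07, 6.62 and 5.23 on the control arrays. Its groups did not overlap, control replicate 2 was the highest and control replicate 4 the lowest control, as for 30 of the 41 genes, and its difference of 1.01 ± 0.34 did not pass (limma adjusted p = 0.0725). Ppargc1a, a coactivator of the fasting response, fell by 1.05 ± 0.21 (limma adjusted p = 0.0151), and the regulator of gluconeogenesis Klf15 fell by 0.75 ± 0.15 (limma adjusted p = 0.014). Lpin1, a phosphatidate phosphatase and coactivator, fell by 2.19 ± 0.52, the lipoprotein receptor Vldlr by 1.79 ± 0.32 and Pparg by 0.70 ± 0.15. The 2 genes that rose, named after their values were seen, were G0s2, an inhibitor of triglyceride lipase (2.78), and Cyp4a32, a fatty acid hydroxylase (1.44).

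Acss1, Acacb, Vldlr, Klf15 and Ppargc1a kept their calls whichever single array was left out. With the run name as a covariate, however, the calls of Klf15, Ppargc1a, Pparg, Lpin1, Acox2, Slc25a20, Mlycd, Acox3 and Pex10 were lost, and with one run name alone that of Vldlr was lost too. Centring on the median of all probes ended those of Acacb, Slc25a20, Mlycd, Acox3 and Pex10. The calls of Slc25a20 and Acox3 were lost without oxaliplatin replicate 2, 3 or 4, and that of Lpin1 without oxaliplatin replicate 2 or 3. Leaving out control replicate 3 or oxaliplatin replicate 3 ended those of Acox2 and Pparg, and control replicate 3 that of Slc25a20. Mlycd and Pex10 lost their calls without control replicate 3 or any of the 4 oxaliplatin arrays, and Mlycd also without control replicate 1.

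Hepatocyte markers, which bear on the whole list, passed the test as higher for 4 of 10 genes, against 6.99% of all genes. These were Alb, Ttr, Serpina1c and Pck1. The other 6 did not pass: Tat had -0.57, Apob -0.03, Apoa1 -0.02, Cps1 -0.005, Hnf4a 0.09 and Ass1 0.13. The mean level of the 10 was between 9.78 and 9.96 on oxaliplatin arrays and between 9.53 and 9.68 on control arrays. Of 8 red blood cell markers tested 4 were higher and 1 lower (62.5%, against 18.6% of all genes). The mean level of the 8 was between 6.00 and 6.73 on oxaliplatin arrays and between 4.56 and 6.11 on control arrays. Of 4 muscle markers tested none passed. The part of these cells in the differences above was not tested.

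PPAR alpha binds DNA with its partner RXR at a direct repeat of AGGTCA with 1 base between the copies. Promoters of 300 bases (250 before and 50 after the start) were found for 36 of the 41 genes in the RefSeq table of build GRCm38.p6, 41 promoters in all. The letters AGGTCA stood on either strand in 11 of the 41 promoters (26.8%), against 16.3% of all 32851 promoters. No promoter of these genes held the exact repeat AGGTCANAGGTCA, which 0.0396% of all promoters held. With up to 2 differences from the repeat, 7 of the 41 promoters held a match (17.1%, against 3.86% of all), those of Acot12, Acot4, Cd36, Creb3l3, Echs1, Etfa and Fabp1. The exact repeat contains the shorter motif, while a match with differences need not, and those of Cd36 and Etfa did not. The 250 bases before the start of Fabp1, at chr6:71199629-71199878 on the plus strand, and of Cd36, at chr5:17835897-17836146 on the minus strand, are given 5′ to 3′ along the gene because the 2 genes moved in opposite directions. Capitals mark the match, with 1 difference for Fabp1 and 2 for Cd36, both on the strand opposite to the gene.
Fabp1 promoter: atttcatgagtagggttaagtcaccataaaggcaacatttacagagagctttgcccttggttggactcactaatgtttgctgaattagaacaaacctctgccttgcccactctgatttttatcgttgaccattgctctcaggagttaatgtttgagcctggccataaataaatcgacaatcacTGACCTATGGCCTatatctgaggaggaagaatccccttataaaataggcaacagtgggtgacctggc
Cd36 promoter: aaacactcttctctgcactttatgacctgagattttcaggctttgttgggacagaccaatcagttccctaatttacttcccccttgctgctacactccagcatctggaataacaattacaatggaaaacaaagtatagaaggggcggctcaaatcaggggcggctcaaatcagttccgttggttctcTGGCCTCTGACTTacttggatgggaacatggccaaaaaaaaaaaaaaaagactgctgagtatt

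The matches began at -67 and -63 from the start of Fabp1 and Cd36. Fabp1 rose and Cd36 fell, while Acot12, Acot4, Creb3l3, Echs1 and Etfa, which also held a match, did not pass the test.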

How the data were processed

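RNA of 8 mouse livers was measured on 8 one-colour arrays, 4 of each group as labelled. Per the file headers, Feature Extraction 12.0.3.1 made the scanner files (the submitters' processing notes name 10.7). The processed signal deposited by the authors is a linear intensity, corrected for background array by array and with no scaling across arrays. The authors' deposited series matrix holds log2 values of 46867 probes whose normalization is not stated. It was used as an alternative alone, and across probes each column tracked the same array's log2 signal (Pearson's r 0.996 to 1.00). Its column medians lay between 5.76 and 5.83, and its centring is unknown.

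Signals were taken to log2 minus each array's 75th percentile over 149782 non-control probes, and spots marked as outliers were left out. Probes well above background on at least 4 of 8 arrays were kept (54636). Of 48257 probes with a RefSeq accession 47985 were named through the RefSeq gene table, and 121 by the file's gene name. Each gene was represented by its brightest probe, which left 13906 genes, 10 of them with no value on some array. Oxaliplatin and control arrays were compared by lmFit and eBayes in limma 3.58.1 (R 4.3.3), Benjamini-Hochberg adjusted over all genes at a threshold of 0.05. The procedure was tested on simulated data. Same-numbered arrays of the 2 groups deviated with correlations of -0.32, -0.08, -0.09 and -0.23, so the numbers were not taken as pairs. The members and lists were chosen with earlier results of these data known. Named genes were all 41 members, and of each pathway list up to 5 called genes with the smallest adjusted p, with Ppara. Some genes this rule names are not reported here. The number of arrays limits the precision. Alternatives covered background correction, scaling, filter, probe choice, run name, replicate block and each array left out.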

Additional observations from a re-analysis of the deposited data

Results flagged for a closer look

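Acadvl, the very long chain acyl-CoA dehydrogenase, had 1 oxaliplatin array apart from the other 3: oxaliplatin replicate 3 was at 8.87, and its gap of 0.14 to the nearest array was 0.870 of the group's range, above Dixon's critical ratio for 4 arrays. The range of the group was 0.16, and the difference between the groups (0.08) did not pass limma's test. Among 82 groups of 4 arrays examined this was the 1 such value. Chance alone gives such a value in about 1 of 20 groups, a larger share than 1 of 82.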

How the results depend on the processing

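Nudt7 kept its call under all 22 alternatives, Cd36 under 20, Fabp1 under 13 and Acsl1 under 12, and 21 of the 37 other members were called under at least 1. The share of all genes called under at least 1 alternative was not counted. Centring on the median of all probes alone called 69.6% of all genes lower. Leaving out 1 array at a time gave 1 to 12 members higher and 1 to 2 lower (mitochondrial 0 to 3 and 0 to 1, peroxisomal 1 to 3 and 0, other 0 to 6 and 1), and 457 to 971 genes higher and 558 to 1506 lower. The 12 came without control replicate 2. The 75th percentile over detected probes gave 6 members higher (1 mitochondrial, 4 other) and 935 genes lower, and moved the median of all genes by 0.11. Centring on the median of all probes gave 1 member higher (0 other) and 10 lower (5 mitochondrial, 3 peroxisomal, 2 other), 230 genes higher and 9683 lower, and turned 19 of the 31 positive members negative, with Acadvl at -0.55 (called lower), and of the pathway genes Acox3 to -0.19 and Pex10 to -0.11. The median of all probes includes dim ones: over tested probes alone, an alternative chosen after seeing the data, it gave 4 members higher and 1 lower. Normexp, quantile normalization and the series matrix each gave 2 members lower (1 mitochondrial, Echs1), and normexp 2596 genes lower. With no filter 2770 of 21232 genes were higher. The replicate block, for numbers that do not pair the arrays, ended the calls of Fabp1 and Acsl1 and left 1 member higher (0 other) and 1 lower, with 266 genes higher and 263 lower; of same-numbered arrays none correlated best with its own number. The run name as a covariate gave 1 member higher (0 other), with 450 genes higher and 469 lower, and 1 run name alone gave 1 higher (0 other) and 0 lower (0 other), with 255 and 260 genes, fewer arrays being in that fit. Without control replicates 2 and 4, chosen after seeing the data, 9 members were higher (2 mitochondrial, 4 peroxisomal) and 0 lower (0 other), with 574 and 556 genes. Higher calls were 37.6% of all calls, 60.5% with detected probes, 2.32% with all probes' median, 20.6% with normexp and 49.96% with quantile normalization. The probe used for each member was well above background on all 8 arrays.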
